A study of Mus musculus with 6 samples.

Results

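The mouse Y RNAs Rny1 and Rny3 and the vault RNA Vaultrc5 were followed in RNA from exosomes, the small vesicles of endosomal origin that cells release into their medium. These 3 genes were taken from the deposited table of non-coding RNA (ncRNA) counts by matching its Ensembl transcript identifiers to the gene names of GENCODE mouse release 21, where each has 1 transcript of gene type misc_RNA. They are 3 of 5880 transcripts in the table and 3 of its 91 misc_RNA transcripts, and all 3 had enough counts to be tested, as had 1286 transcripts in all.

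The exosomes came from P19, a mouse embryonal carcinoma cell line whose cells become neurons when aggregated with retinoic acid. Undifferentiated cells (UD-P19, replicates 1 to 3) released them into serum-free alpha-MEM with N2 supplement. P19 neurons (P19N, replicates 4 to 6) had been formed by 4 days of retinoic acid and then kept in neurobasal medium with B27 and N2, and their medium was taken at 8, 10 and 12 days of culture, 1 library for each age, so that age and replicate cannot be told apart. The labels state that no drug was given, and the methods add that dividing cells in the neuronal cultures were held back with 5-fluorouridine and uridine. Both groups are of 1 cell line, and vesicles were collected by differential centrifugation. The groups differ in medium, and by the methods in how long it was left on the cells. They also differ in retinoic acid, in 5-fluorouridine and uridine, and in cell state, and all these cannot be told apart.

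Y RNAs are short RNAs made by RNA polymerase III that fold back so that their ends form a stem, to which the protein Ro60 binds, while the protein La binds the run of U at their end. They are known for their part in the start of DNA replication and in the quality control of misfolded RNA, and as a common RNA of extracellular vesicles. Vault RNA, also a product of RNA polymerase III, is the RNA of the vault, a hollow cytoplasmic particle built mainly from the major vault protein.

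Both Y RNA genes lie on chromosome 6 of GRCm38, in opposite orientation and 6343 bases apart. Rny1 (ENSMUST00000083767.1) is at chr6:47788069-47788180 on the minus strand and is 112 nt long, and Rny3 (ENSMUST00000083011.1) is at chr6:47781624-47781725 on the plus strand and is 102 nt long. No other annotated gene overlaps either of them, so each is an exon of its own that lies in no intron or UTR of another gene. The nearest protein-coding gene is Pdia4, 7961 bases from Rny1 and 14416 bases from Rny3.

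The sequences of the Y RNAs are shown because their likeness decides whether a read can be assigned to 1 of them. They were read from the GENCODE transcripts as DNA, 5′ to 3′, and capitals mark the bases that RNAfold paired between the first 35 and the last 35 nt, the terminal stem.
Rny1: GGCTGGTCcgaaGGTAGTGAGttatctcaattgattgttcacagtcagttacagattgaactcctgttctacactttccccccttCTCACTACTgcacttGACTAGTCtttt
Rny3: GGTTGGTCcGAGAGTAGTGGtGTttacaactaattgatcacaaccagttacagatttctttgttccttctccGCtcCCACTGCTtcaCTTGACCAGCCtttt
The stem held 17 pairs in Rny1 and 21 in Rny3, and 20 pairs joined the ends of Vaultrc5. All 3 transcripts end in a run of 4 T. Rny1 and Rny3 had the same base at 80 of 112 alignment columns (71.4%), and their longest shared run was the 12 nt CAGTTACAGATT, in the loop between the stem arms. Vaultrc5 was less like either, with 48.3% identity to Rny1 and 43.5% to Rny3. G and C made up 43.8% of Rny1, 45.1% of Rny3 and 53.8% of Vaultrc5.

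The counts reflected these differences in sequence. Counts recorded as unique, read here as reads that matched 1 transcript only, made up 45576 of the 45641 counts of Rny1, all 15118 of Rny3 and all 111 of Vaultrc5. Total counts per library in the table ran from 454499 to 887460. Reads that matched no listed transcript are not in these totals, so a share or a CPM value (the count scaled to library size with edgeR's TMM factors) is relative to the listed ncRNAs.

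The labelled cell states were checked against non-coding markers. The miR-290 and miR-302 hairpins of pluripotent cells, of which 5 of 14 are in the table, summed to 3, 13 and 0 counts in UD-P19 and 0, 0 and 3 in P19N, so they did not separate the groups. Of 11 neuronal markers 9 are in the table, and they summed to 13, 192 and 29 counts in UD-P19 and 113, 108 and 66 in P19N. The highest sum was thus in UD-P19 replicate 2, where the imprinted transcripts Meg3 (65 counts) and Rian (93 counts) and the RNA Bc1 (23 counts) had the most. The miR-9 hairpins, neuronal precursors of miR-9, were at 0 in all UD-P19 libraries and at 0 to 2 counts each in P19N libraries.

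Both Y RNAs were several-fold more abundant in P19N than in UD-P19 exosomes. The vault RNA, far less abundant than the Y RNAs in both groups, did not pass the test. Rny1 rose 3.34-fold and Rny3 rose 3.82-fold, and their libraries did not overlap between the groups. Vaultrc5 had a fold change of 0.99 with a 95% interval from 0.448 to 2.19. Of the 1286 transcripts tested, 309 (24.0%) were called, 193 higher and 116 lower in P19N, beside which 2 of these 3 genes were called, both higher. The study describes the listed transcripts as those whose association differed between the groups, out of more that it identified, so a share called here is not one of all ncRNAs. The CPM of the groups did not overlap, with P19N higher, for 324 transcripts (25.2%), among them both Y RNAs. The 3 genes were chosen with earlier results of these data known, and their calls are not a sample of the class.

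**Figure D1:**
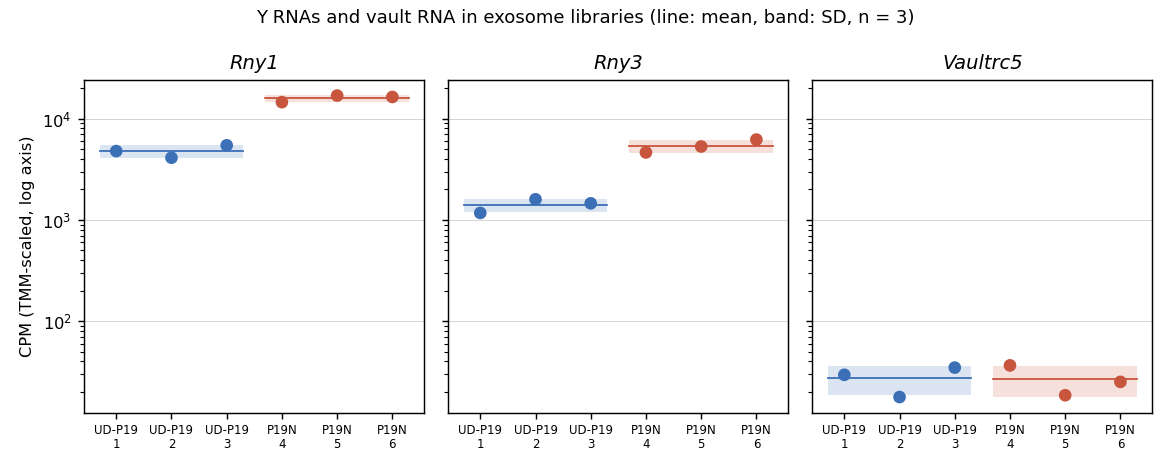
CPM (TMM-scaled, log axis) of Rny1, Rny3 and Vaultrc5 in each exosome library, UD-P19 replicates 1 to 3 in blue and P19N replicates 4 to 6 in red, with the group mean as a line and 1 SD either side as a band. All P19N points of Rny1 (14579 to 16924 CPM) and Rny3 (4641 to 6216 CPM) lie above all UD-P19 points, and the points of Vaultrc5 overlap between 17.8 and 36.5 CPM.

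Rny1, the more abundant Y RNA, had 1949, 3473 and 3296 counts in UD-P19 replicates 1, 2 and 3, and 12375, 12796 and 11752 counts in P19N replicates 4, 5 and 6. On the CPM scale these were 4786, 4115 and 5454 in UD-P19 and 14579, 16924 and 16395 in P19N. Every P19N library was thus well above every UD-P19 library. The means were 4785 ± 669 CPM (SD, n = 3) and 15966 ± 1230 CPM (SD, n = 3). The log2 fold change (P19N minus UD-P19) was 1.74, with a standard error of 0.303 and a 95% interval from 1.10 to 2.38, and edgeR's quasi-likelihood test gave an adjusted p of 0.00069 over all tested transcripts. This log2 fold change was 1.52 above the median of all tested transcripts, which was itself 0.21. By CPM, Rny1 ranked 6 of the tested transcripts in UD-P19 exosomes and 21 in P19N exosomes, so its place in the order was lower in the group where its level was higher. Ranks by CPM here and below count near-identical copies that share reads as separate transcripts, and ranks with copies merged were not computed.

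Rny3, a shorter Y RNA that binds the same proteins, had 477, 1349 and 881 counts in UD-P19 replicates 1, 2 and 3, and 3939, 4016 and 4456 counts in P19N replicates 4, 5 and 6. Its CPM were 1171, 1598 and 1458 in UD-P19 and 4641, 5311 and 6216 in P19N. The groups again did not overlap, and the lowest neuronal library was that of the 8-day and the highest that of the 12-day culture; with 1 library per age, ages were not compared. The means were 1409 ± 218 CPM (SD, n = 3) and 5389 ± 791 CPM (SD, n = 3). The log2 fold change was 1.93, with a standard error of 0.335 and a 95% interval from 1.22 to 2.65 (edgeR's quasi-likelihood test, adjusted p = 0.000674), which was 1.72 above the median of all tested transcripts. Its rank by CPM went from 75 in UD-P19 to 30 in P19N exosomes.

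Vaultrc5 (ENSMUST00000083211.1), the vault RNA, is at chr18:36801866-36802008 of GRCm38 on the plus strand and is 143 nt long. No other annotated gene overlaps it, and the nearest protein-coding gene, Zmat2, is 2200 bases away. It had 12, 15 and 21 counts in UD-P19 replicates 1, 2 and 3, and 31, 14 and 18 counts in P19N replicates 4, 5 and 6. These corresponded to 29.5, 17.8 and 34.8 CPM and to 36.5, 18.5 and 25.1 CPM. The ranges of the groups lay on top of each other, with the highest and the next to lowest of the 6 values both in P19N. The means were 27.3 ± 8.69 CPM (SD, n = 3) in UD-P19 and 26.7 ± 9.11 CPM (SD, n = 3) in P19N exosomes. Among the 1286 tested transcripts its rank by CPM was 537 in UD-P19 and 593 in P19N exosomes. The log2 fold change was -0.01 with a standard error of 0.539 and a 95% interval from -1.16 to 1.13 (edgeR's quasi-likelihood test, adjusted p = 0.985). The interval holds values on both sides of 0, and it is not a limit of what these libraries could detect. The sign of the estimate turned under several other scalings. The counting error alone was wide: in UD-P19 replicate 1 the share of counts was 0.00264%, with an exact Clopper-Pearson 95% interval from 0.00136% to 0.00461%, and in P19N replicate 5 it was 0.00184%, with an interval from 0.00101% to 0.00309%. Such intervals cover counting error only.

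**Figure D2:**
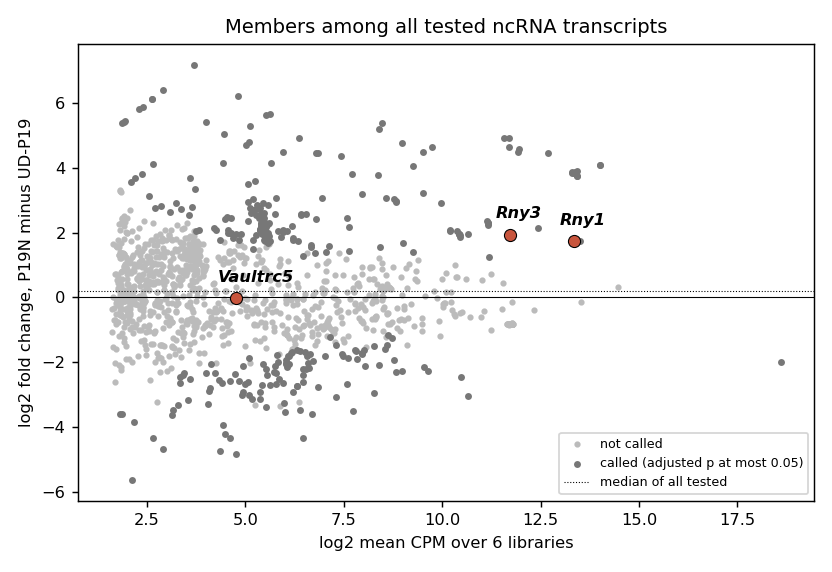
Log2 fold change (P19N minus UD-P19) against log2 of the mean CPM over the 6 libraries for the 1286 tested ncRNA transcripts, dark grey where the adjusted p was at most 0.05, with the 3 genes in red and the median of all tested transcripts (0.21) as a dotted line. Rny1 (1.74) and Rny3 (1.93) stand at the abundant end and above the median, and Vaultrc5 (-0.01) stands among transcripts that were not called.

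Per length, the order of the 3 genes was the same in both groups. Rny1 had 4272 ± 598 CPM per 100 nt (SD, n = 3) in UD-P19 and 14255 ± 1098 (SD, n = 3) in P19N exosomes. Rny3 had 1382 ± 213 (SD, n = 3) and 5284 ± 775 (SD, n = 3) CPM per 100 nt. Vaultrc5 was far below both, at 19.1 ± 6.08 (SD, n = 3) and 18.7 ± 6.37 (SD, n = 3) CPM per 100 nt. The ranges of neighbours in this order did not overlap within either group.

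As a share of the listed counts, the Y RNAs together went from below to above 1%. Rny1 took 0.429%, 0.493% and 0.432% of counts in the UD-P19 libraries and 1.39%, 1.68% and 2.00% in the P19N libraries. Rny3 took 0.105%, 0.191% and 0.116% in UD-P19 and 0.444%, 0.528% and 0.757% in P19N. Rny1 and Rny3 together made up 0.589% ± 0.0831 (SD, n = 3) of counts in UD-P19 and 2.27% ± 0.460 (SD, n = 3) in P19N exosomes. These shares depend on Gm42418, a lincRNA annotation that overlaps ribosomal RNA sequence and is the most abundant listed transcript. Without its counts in the total, the Y RNA share was 1.34%, 1.34% and 1.61% in UD-P19 and 2.21%, 2.64% and 3.36% in P19N. The groups stayed apart, but every library was then above 1%. The means were 1.43% and 2.74%, a smaller rise in points and in proportion. Among unique counts the gap was larger, at 4.23 percentage points for Rny1 and 1.45 for Rny3, in place of 1.24 and 0.439. In bulk vesicle RNA, more vesicles carrying an RNA and more of it per vesicle cannot be told apart.

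Within the misc_RNA class the Y RNAs held most of the counts. They made up 68.4%, 50.8% and 65.9% of misc_RNA counts in UD-P19 replicates 1, 2 and 3 and 72.4%, 74.9% and 84.9% in P19N replicates 4, 5 and 6. For the sum of both Y RNAs the groups did not overlap, and UD-P19 replicate 2 was the lowest library. The difference of the means was 15.7 percentage points, and 10.2 without that library. Rny1 alone did overlap, with up to 54.92% of misc_RNA counts in UD-P19 and from 54.91% in P19N, while Rny3 alone did not. Vaultrc5 made up 0.276% ± 0.102 (SD, n = 3) of misc_RNA counts in UD-P19 and 0.0980% ± 0.0377 (SD, n = 3) in P19N exosomes, while the class itself went from 0.986% ± 0.313 (SD, n = 3) to 2.91% ± 0.354 (SD, n = 3) of all counts. In the share of misc_RNA counts held by Vaultrc5 the groups did not overlap either, with P19N lower. The Y RNAs are part of that total, and the CPM of Vaultrc5 itself overlapped, with means of 27.3 in UD-P19 and 26.7 in P19N. No test was run on these shares of misc_RNA counts.

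Ratios between the 3 genes within a library do not depend on how libraries are scaled, and were used to ask whether the genes moved by different amounts. The log2 ratio of Rny1 to Rny3 was 2.03, 1.36 and 1.90 in UD-P19 replicates 1, 2 and 3 and 1.65, 1.67 and 1.40 in P19N replicates 4, 5 and 6. The libraries of the groups were interleaved, and the means of 1.77 ± 0.353 and 1.57 ± 0.152 (SD, n = 3 each) differed by less than the SD of UD-P19 and by more than that of P19N (exact two-sided permutation test, p = 0.5, adjusted p = 0.5 over 3 ratios). Rny1 accordingly made up 77.1% ± 4.45 of Y RNA counts in UD-P19 and 74.8% ± 2.01 in P19N exosomes (SD, n = 3 each). The difference of the log2 ratios, -0.19, depended on single libraries. It was -0.39 without UD-P19 replicate 2, when the groups no longer overlapped (exact permutation test, p = 0.1, the smallest then possible), and -0.38 with exact-match counts (same exact test, p = 0.3). It was -0.06 without UD-P19 replicate 1, -0.12 without UD-P19 replicate 3 and -0.10 without P19N replicate 6.

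Against the vault RNA both Y RNAs were higher in every P19N library. The log2 ratio of Rny1 to Vaultrc5 was 7.29, 7.81 and 7.26 in UD-P19 and 8.62, 9.79 and 9.31 in P19N, means of 7.45 ± 0.309 and 9.24 ± 0.587 (SD, n = 3 each). The log2 ratio of Rny3 to Vaultrc5 was 5.26, 6.44 and 5.36 in UD-P19 and 6.97, 8.11 and 7.91 in P19N, means of 5.69 ± 0.659 and 7.66 ± 0.613 (SD, n = 3 each). The differences were 1.79 and 1.98, and the groups did not overlap in either ratio. An exact permutation test (two-sided) gave p = 0.1 and adjusted p = 0.15 over 3 ratios for both, and 0.1 is the smallest p that its 20 relabellings allow, so neither could pass 0.05. Both ratios rest on the 12 to 31 counts of Vaultrc5 in each library.

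**Figure D3:**
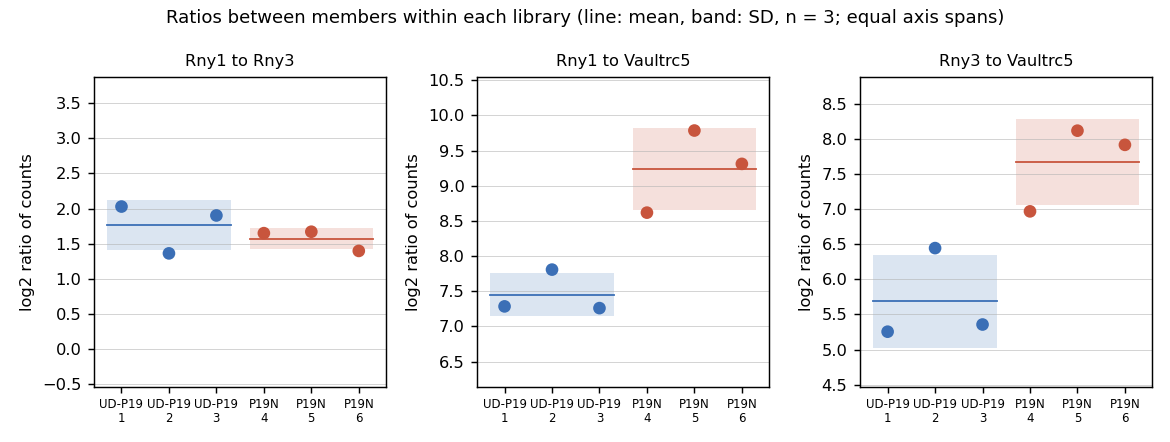
Log2 ratio of counts between pairs of the 3 genes within each library, with the group mean as a line and 1 SD either side as a band, on axes of equal span. The ratio of Rny1 to Rny3 overlaps between UD-P19 (1.36 to 2.03) and P19N (1.40 to 1.67), and the ratios of Rny1 and of Rny3 to Vaultrc5 lie higher in all P19N libraries.

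A second deposited column counts reads named exact, which is not defined and was read here as matches without a mismatch. It does not ask for a match over the whole transcript, since Gm42418, at 1831 nt longer than any merged read pair, had 842707 exact counts. The deposited names of the exact and unique columns also hold the words mature 5, which are not defined either. Whether they limit these counts to part of a transcript is not known. The share of counts that were exact was examined after its values had been seen. For Rny1 it was 71.7%, 60.5% and 73.7% in UD-P19 replicates 1, 2 and 3 and 77.3%, 76.4% and 76.4% in P19N replicates 4, 5 and 6. For Rny3 it was 61.4%, 54.3% and 62.7% in UD-P19 and 75.6%, 76.1% and 75.3% in P19N. Both Y RNAs thus had a larger exact share in every P19N library, and Rny3 the wider gap.

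The difference in exact share was 8.05 percentage points for Rny1 and 16.2 for Rny3, and an exact permutation test (two-sided) gave each p = 0.1, its smallest possible value, and adjusted p = 0.15 over 3 genes. For Vaultrc5 the exact share was 67.0% ± 13.8 in UD-P19 and 66.2% ± 1.77 in P19N (SD, n = 3 each; the same exact test, p = 1), a difference of -0.753 points that was -7.58 without UD-P19 replicate 2 and 6.23 without UD-P19 replicate 3. Many transcripts moved the same way: of 383 with at least 20 counts in each library, 121 (31.6%) had exact shares that were higher in P19N without overlap and 11 lower, and the median difference was 3.89 points. By this difference Rny3 ranked 17 and Rny1 ranked 81 of the 383. Pooled over all counts except those of Gm42418, the exact share went from 42.3% ± 9.44 in UD-P19 to 66.7% ± 2.30 in P19N (SD, n = 3 each), a difference of 24.5 points without overlap that was larger than that of either Y RNA. Over all transcripts it went from 53.9% ± 8.55 to 61.6% ± 3.01 (SD, n = 3 each), a difference of 7.69 points, smaller than that of either Y RNA, and the groups overlapped. In misc_RNA transcripts other than the 3 genes the exact share was 71.6%, 55.5% and 72.1% in UD-P19 and 77.7%, 78.5% and 77.4% in P19N, and UD-P19 replicate 2 was again lowest. Without that library the difference was 6.01 points in place of 11.5 for these transcripts and 3.97 in place of 8.05 for Rny1, and what lowers the share there was not tested. Counts per transcript do not show whether the reads came from whole Y RNAs or from fragments.

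**Figure D4:**
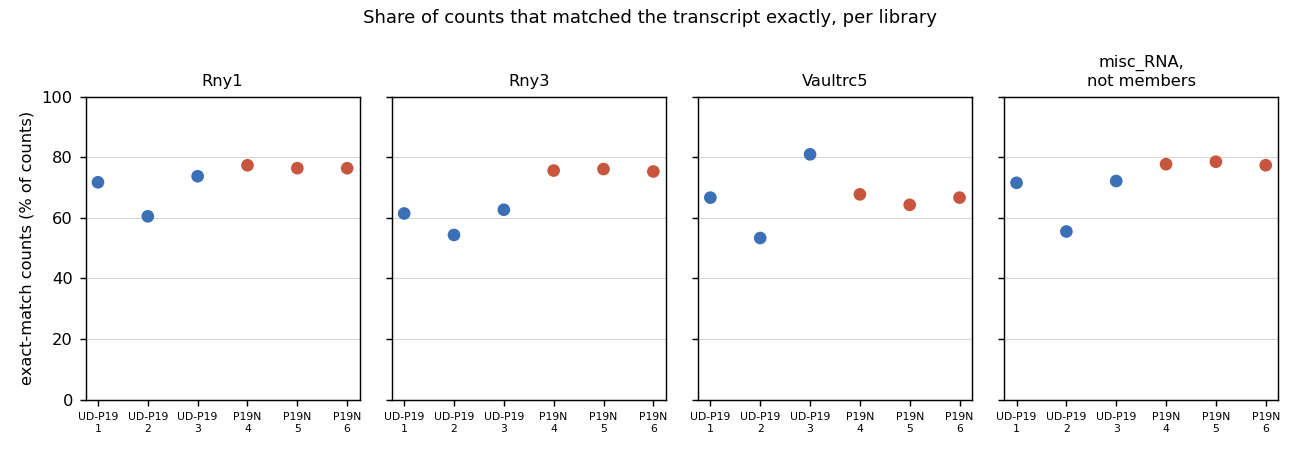
Share of counts recorded as exact (percent of the counts, axis from 0 to 100) in each library for Rny1, Rny3, Vaultrc5 and the other misc_RNA transcripts together, UD-P19 in blue and P19N in red. The P19N points of both Y RNAs lie between 75.3% and 77.3%, above all their UD-P19 points, and UD-P19 replicate 2 is the lowest point of every panel.

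Rny1 has 7 sequence relatives in the table, all misc_RNA annotations named as gene models, which match at least 80% of its length with an identity of 80% or more, and Rny3 and Vaultrc5 have none. The relative with the most counts, Gm26168 (ENSMUST00000083787.1), lies at chr6:122623547-122623658 on the plus strand and is shown because it is the 1 relative with enough counts for a test. Capitals mark the bases that differ from Rny1 in the alignment.
Gm26168: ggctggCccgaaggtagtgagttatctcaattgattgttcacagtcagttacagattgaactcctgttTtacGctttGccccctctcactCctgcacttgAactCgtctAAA
It had 90.3% identity to Rny1 over 113 alignment columns, and most of the differing bases lie toward the 3′ end, where Rny1 has its run of T. Its counts were 2, 7 and 8 in UD-P19 and 37, 30 and 23 in P19N, well apart though far below those of Rny1. The means were 8.81 ± 4.19 CPM and 38.5 ± 5.85 CPM (SD, n = 3 each), and the log2 fold change was 2.07 with a standard error of 0.570 (edgeR's quasi-likelihood test, adjusted p = 0.0141). Because 61 of its 107 counts were unique, its level is uncertain where reads of Rny1 could be split to it. The other 6 relatives had from 0 to 14 counts in all libraries together and were not tested.

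Other RNA polymerase III transcripts were compared from a list of named genes. Of 7 such transcripts, 1 (14.3%) rose in P19N and 6 did not pass the test, a share close to the 193 of 1286 called higher among all transcripts, with a median log2 fold change of 0.81 beside 0.21 over all tested transcripts. The 7 include a pair of Rmrp annotations and the copies Rn7s1 and Rn7s2, which share reads. The transcript that rose was the lincRNA annotation of Rmrp, the RNA of the ribonuclease MRP, an enzyme of ribosomal RNA processing. It had 2920, 3573 and 2796 counts in UD-P19 and 15992, 12520 and 13159 in P19N, with no overlap. Its log2 fold change was 1.75 with a standard error of 0.319 (edgeR's quasi-likelihood test, adjusted p = 0.000992), a value close to that of Rny1, and 50135 of its 50960 counts were unique. Its mean CPM was 5344 ± 1594 in UD-P19 and 17919 ± 1202 in P19N exosomes (SD, n = 3 each), above the means of Rny1 (4785 and 15966). Per 100 nt it had 1902 CPM in UD-P19 and 6377 in P19N exosomes, between Rny3 and Rny1 in both groups. Its place relative to Rny1 thus depended on the division by length.

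The 6 listed transcripts that did not pass the test had log2 fold changes from -1.41 to 1.19. Rn7sk, the 7SK RNA that holds the elongation factor P-TEFb inactive, had 0.81 with a standard error of 0.406 (adjusted p = 0.15 in the same edgeR test). Rn7s1 and Rn7s2, copies of the RNA of the signal recognition particle, had 0.63 and 0.62, with 0 unique counts each, so reads cannot be assigned to either copy. Rpph1, the RNA of ribonuclease P, had 1.14 (adjusted p = 0.11 in the edgeR test), and the ribozyme annotation of Rmrp, with 0 unique counts, had 1.19 (adjusted p = 0.0585). Bc1, a brain cytoplasmic RNA of neurons, was the 1 listed transcript with an estimate below 0: it had 4, 23 and 6 counts in UD-P19 and 5, 6 and 3 in P19N, and its log2 fold change was -1.41 with a standard error of 0.680 (adjusted p = 0.139 in the edgeR test). Its highest count was in UD-P19 replicate 2.

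The 5S ribosomal RNA copies are also made by RNA polymerase III. Of 103 listed copies, 60 were tested, of which 7 (11.7%) fell and 53 did not pass the test, beside 116 of 1286 (9.02%) called lower among all transcripts. The estimate was below 0 for 59 of the 60, beside 586 of 1286 (45.6%) among all transcripts, with a median log2 fold change of -0.82. Of the 530338 counts of the listed copies, 8129 were unique, so the copies share reads and are not 60 separate measurements. Among misc_RNA transcripts other than the 3 genes, 88 were listed and 21 tested. Of these 4 rose and 17 did not pass the test, near the 193 of 1286 called higher among all transcripts. Their median log2 fold change was 0.81, with a range from -0.85 to 3.26. Of the 22599 counts of the listed ones, 2474 were unique, so they too share reads and are not 21 separate measurements. The 21 include Rn7sk, Rn7s1 and Rn7s2 of the RNA polymerase III list, and Rn7sk, at 0.81, is the median of both lists. The Rny1 relative Gm26168 is among the 4 that rose. The log2 fold changes of Rny1 and Rny3 were above the median of the rest of their class and within its range, and that of Vaultrc5 was below the median.

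**Figure D5:**
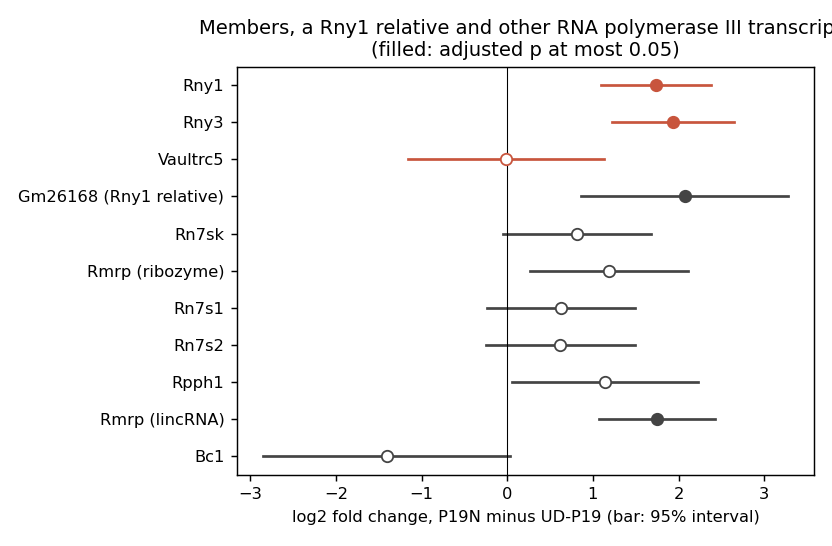
Log2 fold change (P19N minus UD-P19) with its 95% interval for the 3 genes in red and, in grey, Gm26168 and the 7 listed RNA polymerase III transcripts, filled where the adjusted p was at most 0.05. Rny1 (1.74), Rny3 (1.93), Gm26168 (2.07) and the lincRNA annotation of Rmrp (1.75) are filled, and Bc1 (-1.41) has the lowest estimate.

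Across the 6 libraries, log2 CPM of Rny1 and Rny3 followed each other with a Pearson correlation of 0.972, while the correlation with Vaultrc5 was 0.00059 for Rny1 and -0.14 for Rny3. These correlations describe 2 groups of libraries that share their scaling and carry no test. Among 754 transcripts compared, those most like Rny1 were the snoRNA Gm25210 (r = 0.991), the small Cajal body RNA Scarna3a (r = 0.989) and the snoRNA Snord22 (r = 0.987). Those most like Rny3 were the snoRNA Snord116l17 (r = 0.989), Snord22 (r = 0.988) and the snRNA Gm23686 (r = 0.981). Each of these had a positive log2 fold change, from 1.28 for Snord22 to 3.80 for Gm23686. Gm25210, Snord22 and Snord116l17 had 0 unique counts, so their reads could belong to copies. The transcripts most like Vaultrc5 were Gm26109 (r = 0.921), Snora5c (r = 0.897) and Mir3096 (r = 0.892), with log2 fold changes of -0.14, 0.03 and -0.47, none of which was called.

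Without UD-P19 replicate 2, the log2 fold change was 1.86 for Rny1 and 2.28 for Rny3, and both were still called (edgeR's quasi-likelihood test, adjusted p = 6.82e-06 and 4.09e-06). In that fit 382 of 1145 tested transcripts were called higher in P19N and the median of all was 0.60, so that Rny1 was 1.27 and Rny3 1.68 above it. How many transcripts were called on each side varied with the scaling, while the calls of the Y RNAs did not. With DESeq2 size factors in edgeR 178 of 367 calls were higher in P19N, with TMM factors computed without rRNAs 160 of 388, and without Gm42418 174 of 370, beside 193 of 309 here. The median of all tested transcripts moved from 0.21 to 0.05, -0.14 and -0.02 under these scalings. The log2 fold change was then 1.58, 1.41 and 1.52 for Rny1 and 1.78, 1.58 and 1.72 for Rny3, each still called. Relative to the median of all tested transcripts, Rny1 was between 1.27 and 1.93 and Rny3 between 1.57 and 2.07 under all alternatives run.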

How the data were processed

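Small RNA libraries of exosomes from UD-P19 cells (n = 3) and P19N (n = 3), described as biological replicates, were analysed. The authors trimmed adaptors, joined read pairs and matched reads to GRCm38 ncRNA transcripts in CLC Genomics Workbench (version not given in the sources used here), and deposited unnormalized counts per transcript, with unique and exact counts beside them. Deposited group means, fold changes and p-values hold the comparison of the study and were not used. Of 48 further per-library columns, 36 held 0 throughout, and the others were not used. Identifiers were matched to GENCODE mouse release 21 (5773 of 5880 matched).

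Transcripts with at least 15 counts in total were tested with edgeR 4.0.16 in R 4.3.3 (TMM factors, quasi-likelihood test, Benjamini-Hochberg adjustment over 1286 transcripts, 0.05 as the limit for calls). The edgeR p-values set the difference between the groups against the spread between libraries. In P19N that spread holds both replicate and culture age. Ratios used a pseudocount of 0.5, and log2 CPM for correlations a prior count of 2. Relatives were found with BLAST 2.17.0 and stems folded with ViennaRNA 2.7.2. The members and lists were chosen with earlier results of these data known. The text names the 3 genes, listed RNA polymerase III genes, relatives (identity of 80% or more over 80% or more of the length) and, per gene, the 3 most correlated transcripts with a mean of at least 10 counts, near-identical families (identity of 90% or more, cover of 80% or more) counted once. Alternatives were other count minimums (5, none, filterByExpr), scalings, tests (edgeR's exact test, DESeq2 1.42.0, robust fit), unique or exact counts, copies summed, a threshold of 0.01 and each library left out. Leaving out libraries for the exact shares and the share of misc_RNA counts was chosen after seeing the data.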

Additional observations from a re-analysis of the deposited data

How the results depend on the processing

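Rny1 and Rny3 were higher in P19N and called in all 22 alternatives, with log2 fold changes of 1.41 to 1.91 and 1.58 to 2.28 and adjusted p from 6.82e-06 to 0.00713 and from 4.09e-06 to 0.00901. Vaultrc5 was called in none (adjusted p from 0.671 to 1), and its estimate of -0.01 turned to 0.14 with filterByExpr, 0.0084 with TMMwsp, 0.16 with total counts, 0.026 with TMM without snRNAs, 0.13 with unique counts, 0.0052 without UD-P19 replicate 3 and 0.048 without P19N replicate 6. With single libraries left out it ran from -0.466 to 0.048. The 309 calls became 127 with unique counts (510 transcripts tested), 161 with copies summed (820 tested), 182 at an adjusted p of at most 0.01, and ran from 199, without P19N replicate 4, up to 533 when UD-P19 replicate 2 was left out.

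The share of counts rose by 1.24 percentage points for Rny1, which became 0.938 without Gm42418 and 4.23 among unique counts, and by 0.439 for Rny3, which became 1.45 among unique counts. That of Vaultrc5 differed by 0.00029 points, and by -0.00292 without Gm42418, 0.00456 among unique counts and from -5.79e-05 (without P19N replicate 4) to 0.000768 with a library left out. The exact share of Vaultrc5 differed by -0.753 points, and from -7.58 (without UD-P19 replicate 2) to 6.23 (without UD-P19 replicate 3) with a library left out, being 0.22 without P19N replicate 5. No direction of the 3 ratios turned. The causes of these shifts were not tested. No paired analysis was possible because the groups share no replicate numbers. Vaultrc5 rests on 12 to 31 counts in each library, and how far depth or spread between libraries sets its error was not tested.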
